A study of Mus musculus with 2 samples.

Results

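The 9 genes Dazl, Dnd1, Nanos1, Nanos2, Nanos3, Pum2, Elavl1, Elavl2 and Tial1 code for RNA-binding proteins that control the translation or decay of mRNAs in germ cells. They were taken by their symbols from a table of 53832 genes, and all 9 were found once. The table describes 2 mouse oocyte libraries of 1 group, replicates 1 and 2. Embryonic ovaries were kept in culture under an outside pressure of 33.3 kPa, and flow cytometry then collected the cells positive for Stella-CFP, a fluorescent reporter of the germ cell gene Stella (Dppa3). The labels call the cells small oocytes and give neither the age of the embryos nor the strain. Nothing in the labels says that the replicates came from separate cultures, so the spread between them may be technical. Both libraries had the pressure, so no effect of pressure is measured here.

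Growing germ cells store much of their mRNA and decide through its 3' untranslated region (3' UTR) when it is translated or removed. DAZL binds uridine-rich stretches there and recruits poly(A)-binding protein, which favours translation. PUM and NANOS proteins bind together on other elements and recruit the CCR4-NOT deadenylase, which shortens the poly(A) tail, and DND1 works with NANOS2 in male germ cells of the mouse. ELAVL proteins bind AU-rich elements and tend to stabilise the RNA, and TIAL1 binds U-rich RNA and can hold it back from translation.

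The libraries held 5019462 and 5274338 expected counts (replicates 1 and 2), which RSEM estimates and which need not be whole numbers. Levels are given as TPM, the count per kilobase of merged exons scaled to a fixed sum within each library. All 8 oocyte markers (Ddx4, Sycp3, Kit, Figla, Nobox, Sohlh1, Zp3 and Gdf9) were expressed, meaning that each library gave a TPM of 1 or more, and their median was 945 TPM. Of 27 markers of granulosa, stroma, surface epithelium, endothelium, perivascular, immune, erythroid and neuronal cells, 8 were expressed, and all 27 together held 300 and 316 counts. That is 0.00598% of replicate 1 (exact Clopper-Pearson 95% interval 0.00532 to 0.00669%) and 0.00599% of replicate 2 (0.00535 to 0.00669%). The expressed markers of other cell types included the stroma genes Mfap4 (9.64 and 8.99 TPM) and Col1a1 (1.32 and 2.29). The perivascular gene Myh11 stood at 8.61 and 12.7 TPM and the surface epithelium gene Krt8 at 5.03 and 2.85 TPM. Also expressed were the endothelial gene Pecam1 (3.35 and 2.24 TPM) and the granulosa gene Nr0b1 (2.56 and 2.16). The erythroid gene Hbb-bs stood at 3.02 and 3.63 TPM and the neuronal gene Tubb3 at 3.14 and 2.98 TPM. The granulosa gene Fshr, the stroma gene Tcf21, the endothelial gene Emcn and the immune genes Ptprc, Adgre1 and Tyrobp had 0 counts. The 9 regulators held 0.138% and 0.136% of the counts. All intervals and floors here allow for counting error and nothing else. PCR copies are not independent molecules, so the intervals, which treat each count as independent, may be too narrow.

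Some of the regulators' own mRNAs carry the elements that the family is known to bind, and these sites are shown because the proteins that read them are members or close relatives of members. The element of Pumilio proteins, written in DNA letters as TGTANATA, was searched on the sense strand of the longest annotated 3' UTR of each gene. It occurred 3 times in Elavl2, 2 times in Pum2 itself and once each in Nanos1 and Tial1. No match was found in Dazl, Dnd1, Nanos2, Nanos3 and Elavl1. Each site is given with its flanks in GENCODE M21 transcripts for GRCm38, 5' to 3', with the element in capitals.
Elavl2, chr4:91251942-91251971, minus strand: gctttgtgtgaTGTAAATAagaccttgtgt
Elavl2, chr4:91251734-91251763, minus strand: ctaattctgtcTGTAGATAgtctagcttca
Elavl2, chr4:91251069-91251098, minus strand: aataaaatacaTGTATATAtttaaaaaaaa
Pum2, chr12:8750154-8750183, plus strand: gtttatagagaTGTATATAgaattatagtt
Pum2, chr12:8750407-8750436, plus strand: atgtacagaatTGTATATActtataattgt
Nanos1, chr19:60757710-60757739, plus strand: taatcatatcgTGTACATAtttggaaacgg
Tial1, chr7:128441738-128441767, minus strand: atgataaacatTGTAAATAttgaataacta

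The element is common in long 3' UTRs, so each count is set against 3' UTRs within 10% of the same length. Of 20916 protein-coding genes with a 3' UTR, 23.2% held at least 1 element. At the length of the Elavl2 3' UTR, 2477 bases, 39.8% held at least 1 and 3.49% held 3 or more. At that of Pum2, 2861 bases, 43.8% held at least 1 and 14.1% held 2 or more. At that of Nanos1, 2845 bases, and of Tial1, 2756 bases, 43.9% and 43.4% held at least 1, and each of these genes held a single element. Dazl, with 1854 bases, held no element, and 33.3% of 3' UTRs of its length held at least 1.

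Elavl1 differed from the other members by a run of AU-rich elements, the kind that ELAVL proteins bind. The nonamer TTATTTATT was found 8 times in its 3' UTR of 4218 bases, in copies that start between bases 3794 and 3840 after the stop codon. Each copy but the one at base 3816 overlaps a neighbour. One of these copies is shown with its flanks, on the minus strand at chr8:4285776-4285805, with the nonamer in capitals.
Elavl1: tatttatttatTTATTTATTtttatttatt

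Of 3' UTRs of similar length, 19.4% held at least 1 such nonamer and 0.305% held 8 or more, while none of the other members held one. A U-rich element of the DAZL type, searched as TTTGTTT or TTTCTTT on the sense strand, was found 26 times in Elavl1, 13 times in Tial1, 7 times in Elavl2 and 4 times in Pum2. Matches that overlap each other were counted separately, here and in the 3' UTRs of similar length. Such matches start at bases 432 and 436 in Elavl1 and at bases 1934 and 1939 in Tial1, so the counts are not of separate sites. In Elavl1, 2 of the U-rich matches overlapped an AU-rich nonamer. Dnd1 held 2 such elements, Dazl and Nanos2 held 1 each, and Nanos1 and Nanos3 held none. At least as many were present in 0.762% of 3' UTRs of the length of Elavl1, 2.7% for Tial1, 6.02% for Dnd1, 10.5% for Elavl2, 40.2% for Pum2, 48.4% for Nanos2 and 72.5% for Dazl. At least 1 was present in 85.7% of 3' UTRs of the length of Nanos1 and in 11.5% of those of the length of Nanos3. The comparison sets for the AU-rich and U-rich elements too were matched for length and not for base composition. All these matches are letters in annotated transcripts. Whether any of them is bound in oocytes was not measured.

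**Figure D1:**
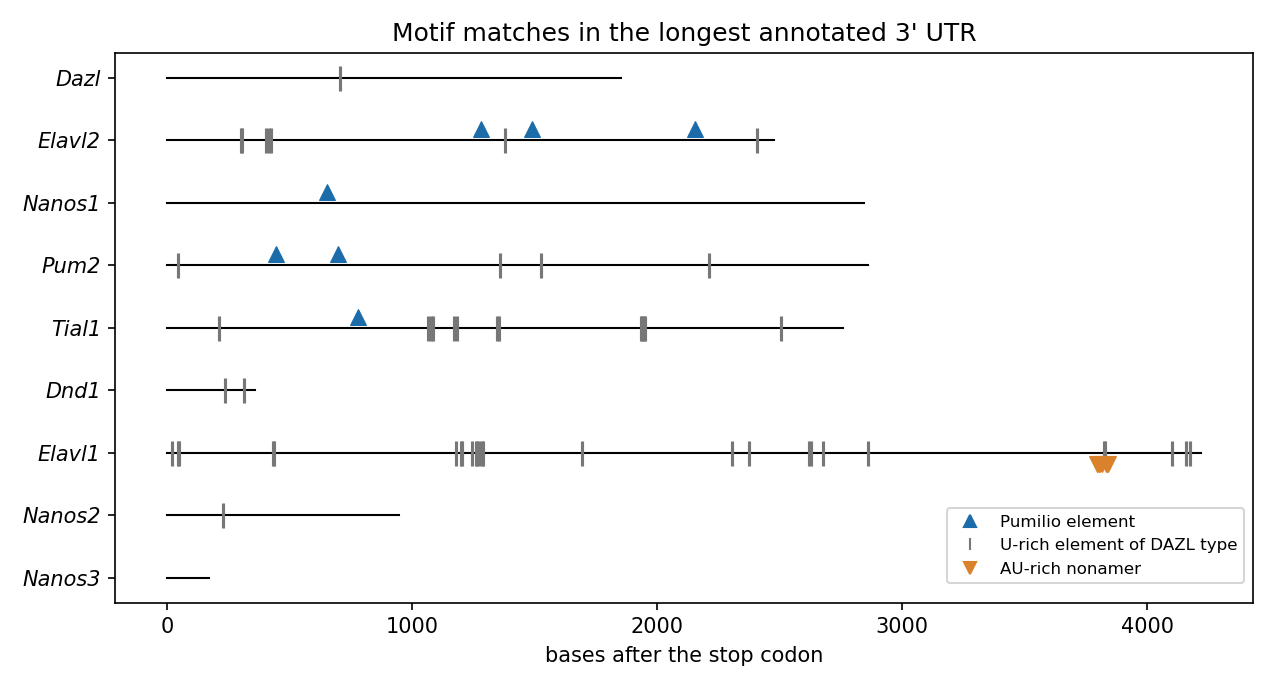
Positions of the Pumilio element, the U-rich element of DAZL type and the AU-rich nonamer along the longest annotated 3' UTR of each regulator, in bases after the stop codon. Elavl2 carries 3 Pumilio elements and Elavl1 carries 8 AU-rich nonamers close together near its end.

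Of the 9 regulators, 7 were expressed, against 53.5% of 21722 protein-coding genes, and their median was 46.2 TPM against 2.57 TPM for all protein-coding genes. The genes were chosen as germline regulators, so this contrast describes the choice as much as the cells. The libraries come from many cells, so fewer cells with an RNA and less of it per cell cannot be told apart.

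Dazl (ENSMUSG00000010592, chromosome 17, 50279395 to 50293636), which promotes translation and is needed for germ cell development in the mouse, had 1814 and 1691 counts. Its level was 275 TPM in replicate 1 and 247 TPM in replicate 2, or 261 ± 20.0 (SD, n = 2). That lay above 98.0% and 97.7% of protein-coding genes, and 470 of them had a higher mean.

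Elavl2 (ENSMUSG00000008489, chromosome 4, 91250763 to 91400785), a Hu protein of neurons and germ cells, had 2505 and 2804 counts, the most of the 9. Its level was 174 TPM in replicate 1 and 188 TPM in replicate 2, or 181 ± 9.55 (SD, n = 2). Per merged exon length Dazl stood above Elavl2 in both libraries, by 0.52 ± 0.19 in log2(TPM + 1). The merged exons of Elavl2 span 8313 bases over 16 annotated transcripts, against 3820 for Dazl. With the longest transcript as gene length the means were 261 TPM for Dazl and 280.3 TPM for Elavl2, a difference of -0.10, so no order of these genes is read.

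Nanos1 (ENSMUSG00000072437, chromosome 19, 60755987 to 60759914), the family member that mouse germ cells can do without, had 644 and 653 counts, or 94.9 and 92.6 TPM. Pum2 (ENSMUSG00000020594, chromosome 12, 8674134 to 8752581), a repressor that reads the Pumilio element, had 1049 and 1157 counts, or 83.7 and 88.8 TPM. The libraries of these genes did not overlap, at 93.8 ± 1.61 and 86.2 ± 3.64 TPM (SD, n = 2), but their counting intervals did in each library. With the longest transcript as gene length Pum2 came out above Nanos1, with a Nanos1 minus Pum2 difference of -0.0794 in log2(TPM + 1).

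Tial1 (ENSMUSG00000030846, chromosome 7, 128439777 to 128461717), which primordial germ cells of the mouse need to survive, had 548 and 575 counts. Its level was 46.0 and 46.4 TPM, or 46.2 ± 0.323 (SD, n = 2), below both libraries of Pum2 and above both of Dnd1.

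Dnd1 (ENSMUSG00000044595, chromosome 18, 36763671 to 36766214), another gene that primordial germ cells need, had 82 and 68 counts. Its level was 19.7 TPM in replicate 1 (95% interval 15.7 to 24.4) and 15.7 TPM in replicate 2 (12.2 to 19.9). Elavl1 (ENSMUSG00000040028, chromosome 8, 4285382 to 4325413), the member of the ELAVL family found in most cell types, had 286 and 229 counts, or 16.0 and 12.3 TPM. The ranges of Dnd1 and Elavl1 overlapped, and their order turned with the longest transcript as gene length, at -0.28 in log2(TPM + 1).

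Nanos2 and Nanos3 were at or under the detection floor, the level that a count of 3 gives. Nanos2 (ENSMUSG00000051965, chromosome 7, 18987400 to 18988962), which in the mouse acts in male germ cells, had 1 and 3 counts, or 0.370 TPM (95% interval 0.00938 to 2.06) and 1.07 TPM (0.221 to 3.13). Nanos3 (ENSMUSG00000056155, chromosome 8, 84173731 to 84185217), which maintains primordial germ cells, had 0 counts in each library, where 3 counts would give 1.88 and 1.81 TPM. Nanos3 was thus not detectable at this depth, and lower levels cannot be seen.

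All 9 regulators had whole-number counts in both libraries, where 7.08% and 6.97% of all genes, those at 0 included, had a fractional count. Exons on the opposite strand overlap those of 3 members. Wdr55 shares 140 bases with Dnd1, Ccl25 shares 204 with Elavl1, and the antisense gene Gm45058 shares 766 with Nanos2. The libraries are strand-specific per the labels' protocols, but whether the counting used the strand is not given in the sources used here, so the values of these 3 members are uncertain.

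**Figure D2:**
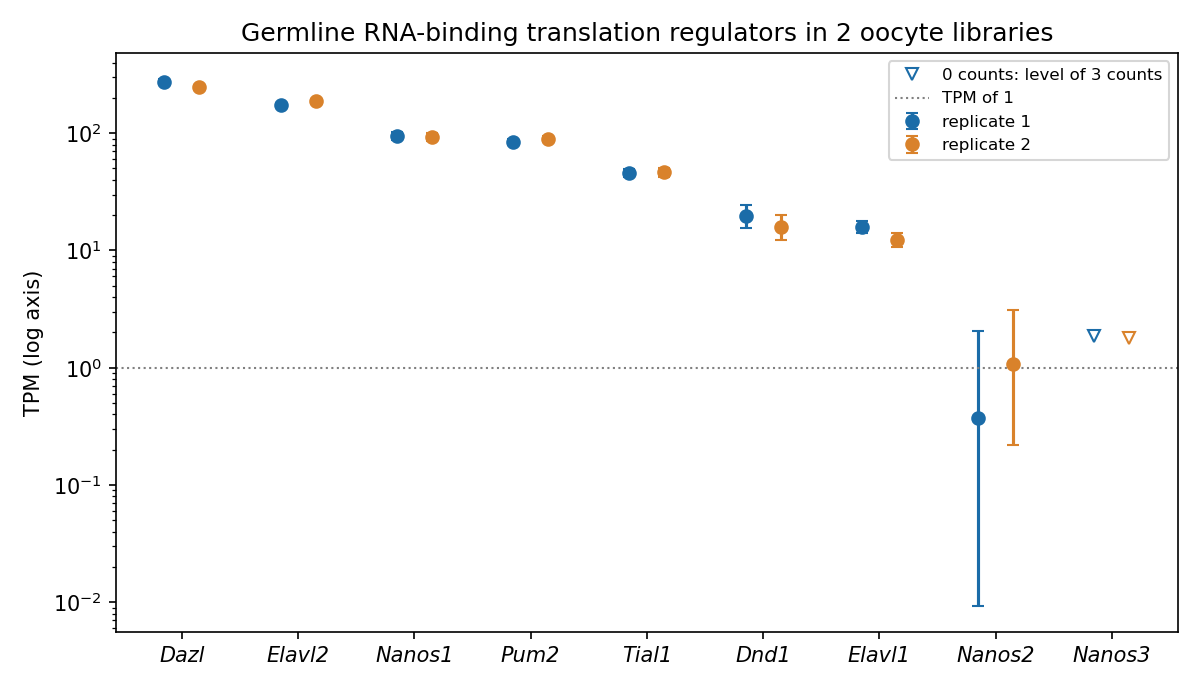
TPM (log axis) of the 9 regulators in replicates 1 and 2, with bars for the exact 95% counting interval. From Dazl at 275 and 247 TPM to Elavl1 at 16.0 and 12.3 TPM, 7 genes lie well above a TPM of 1, Nanos2 lies around it, and open triangles mark the level of 3 counts for Nanos3, which had 0.

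In each of the NANOS, ELAVL, TIA1 and DAZ families 1 gene led. In the NANOS family Nanos1 held 99.2 ± 0.532% of the summed TPM (SD, n = 2). Its level was 256 times that of Nanos2 in replicate 1 (exact 95% counting interval 45.8 to 10137) and 86.6 times in replicate 2 (29.5 to 421). Nanos1 stood at 50.5 times the floor of 3 counts for Nanos3 in replicate 1 and 51.2 times in replicate 2. The exact 95% lower limits of the ratio of Nanos1 to Nanos3 were 40.9 and 41.5.

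In the ELAVL family Elavl2 held 91.0 ± 1.65% of the summed TPM and Elavl1 7.14 ± 1.55% (SD, n = 2). Elavl2 was 10.9 times as high as Elavl1 in replicate 1 (95% interval 9.66 to 12.4) and 15.3 times in replicate 2 (13.3 to 17.5). Its lead was 3.60 ± 0.32 in log2(TPM + 1), far larger than the spread between libraries. It was 3.35 with CPM and 3.76 with the longest transcript as gene length. The neuronal paralogue Elavl3 had 31 and 34 counts, or 2.60 and 2.75 TPM, and Elavl4 had 10 and 8 counts, or 1.07 and 0.828 TPM. Of the neuronal markers, Tubb3 stood at 3.14 and 2.98 TPM, with 95% intervals of 1.49 to 5.70 and 1.43 to 5.49. Those of Elavl3 were 1.77 to 3.70 and 1.90 to 3.84, so no order of Tubb3 and Elavl3 is read. Rbfox3 had 6 and 1 counts and Snap25 had 0. The part of these neuronal markers in the counts of Elavl3 and Elavl4 was not tested.

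Tial1 stood above Tia1, its closest relative and a marker of stress granules, by 2.54 ± 0.14 in log2(TPM + 1). Tia1 had 178 and 218 counts, or 6.54 and 7.71 TPM. The size of this lead depended on gene length, since the merged exons of Tia1 span 15750 bases. It was 1.47 with the longest transcript as length. Boll, the paralogue of Dazl, had 9 and 4 counts, or 1.48 and 0.634 TPM. Dazl was 185 times as high in replicate 1 (95% interval 97.5 to 406) and 389 times in replicate 2 (152 to 1429).

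**Figure D3:**
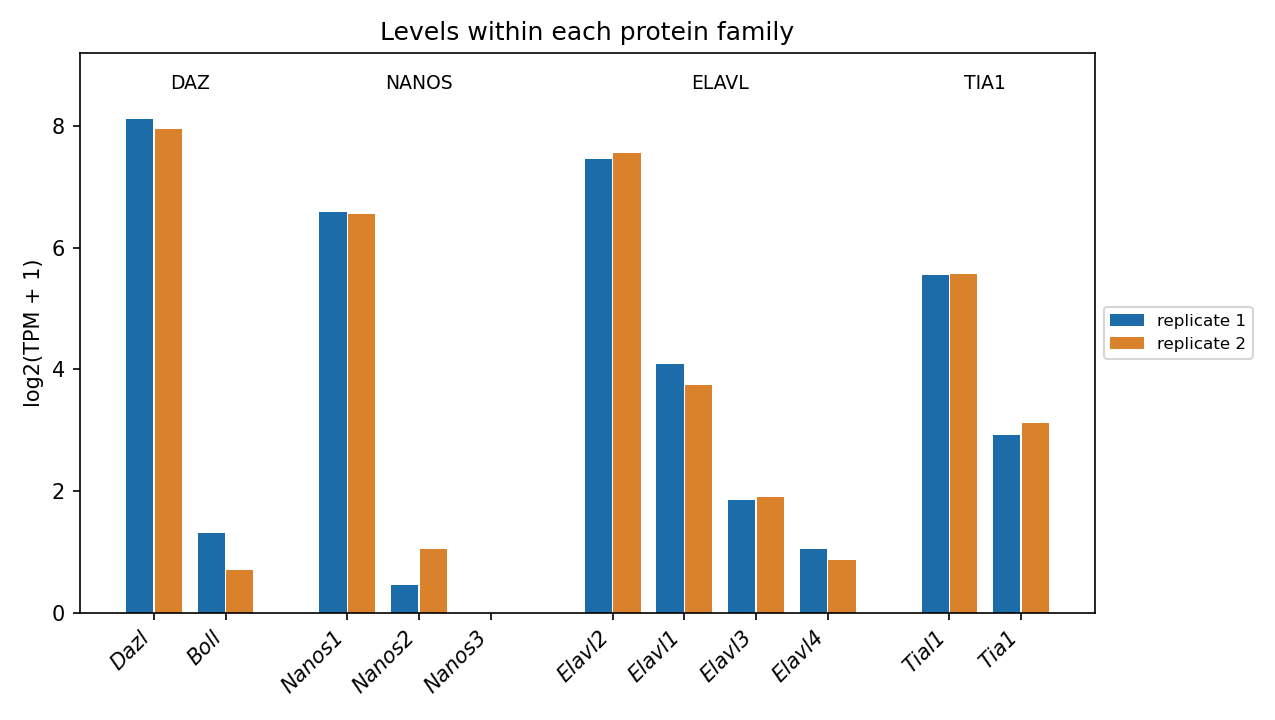
Levels in log2(TPM + 1) of the regulators of the DAZ, NANOS, ELAVL and TIA1 families and their paralogues, with 1 bar per library. Elavl2, Nanos1, Dazl and Tial1 each stand well above the rest of their family in both libraries.

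For the linked gene lists that follow, the share to set beside each count is the 53.5% of all protein-coding genes that were expressed. The lists were chosen for known links, so their counts describe that choice as much as the cells. Of the 10 subunits of CCR4-NOT, the deadenylase that PUM and NANOS proteins recruit, all 10 were expressed, at a median of 68.2 TPM. Cnot2 stood at 135 ± 0.481 TPM and the large scaffold Cnot1 at 125 ± 13.0 TPM (SD, n = 2). Cnot6l and Cnot6, which are among the catalytic subunits, were the lowest of the 10, at 34.6 ± 1.09 and 25.1 ± 3.03 TPM (SD, n = 2).

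Of 5 DAZL partners 4 were expressed, at a median of 306 TPM. Dazap2 stood at 345 and 340 TPM and the dynein light chain Dynll1, which can carry DAZL, at 320 and 321 TPM. The poly(A)-binding protein gene Pabpc1 stood at 302 and 311 TPM and Dazap1 at 128 and 105 TPM. Pabpc1l, the poly(A)-binding protein of later oocytes and early embryos, had 5 and 3 counts, or 1.06 and 0.614 TPM.

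Of 7 mRNAs known to be bound by DAZL in mouse germ cells, 6 were expressed, at a median of 79.3 TPM, and Ddx4 and Sycp3 of this list are also among the oocyte markers. The axis protein Sycp3 stood at 1790 and 1699 TPM and the helicase Ddx4 at 242 and 268 TPM. The pluripotency gene Sall4 stood at 5.02 and 5.74 TPM, and Sox2 had 0 and 1 counts.

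Of 10 genes of P-bodies, where untranslated mRNA collects, all 10 were expressed, at a median of 70.9 TPM. Lsm14b led at 939 and 860 TPM. Ddx6, the helicase whose mRNA ELAVL2 acts on in mouse oocytes, stood at 183 and 178 TPM. The decapping enzyme Dcp2 stood at 18.5 and 24.2 TPM and the exonuclease Xrn1 at 10.4 and 12.8 TPM.

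Of 5 early germ cell genes 3 were expressed, or 60.0%, near the 53.5% of all protein-coding genes. Their median was 2.23 TPM. Pou5f1, which oocytes also express, stood at 230 and 287 TPM and Prdm1 at 11.8 and 11.7 TPM. Tfap2c stood at 1.57 and 2.88 TPM. Prdm14 and Nanog had 0 counts in both libraries, as did Nanos3.

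**Figure D4:**
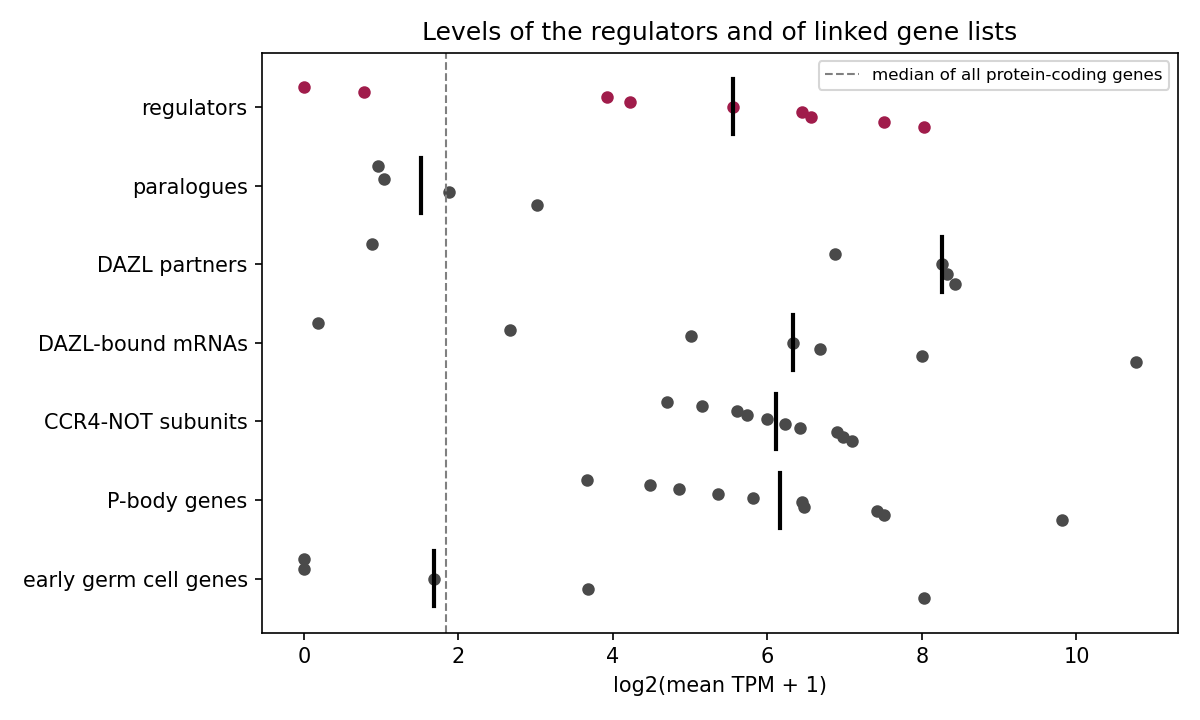
Mean level of each gene in log2(mean TPM + 1) for the regulators, their paralogues and 5 linked lists, with a bar at each list's median and a dashed line at the median of all protein-coding genes, 2.57 TPM. The CCR4-NOT and P-body lists lie wholly to the right of that line, while Nanos3, Prdm14 and Nanog lie at 0.

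The libraries were set against each other, replicate 1 over replicate 2, in a two-sided exact binomial test of counts over 12182 genes with Benjamini-Hochberg adjustment. The test compares these libraries of the same treatment and allows for counting noise alone. It treats each count as independent, so with PCR copies its p-values may be too small. Of the 7 regulators with enough counts, 2 were higher in replicate 1 at an adjusted p under 0.05 and 0 were lower, where 3.59% of all genes tested were higher and 4.25% lower, 7.84% in all. At 2-fold or more, 0 of 7 were called, against 0.673% of all genes, of which 0.246% were higher and 0.427% lower in replicate 1. At an unadjusted p under 0.05 there were 3 of 7, none of them 2-fold, against 2516 of all 12182 genes. EdgeR's negative binomial test, run with a biological coefficient of variation set by hand to 0.1, called 0 of 7 and, with no fold minimum, 14 of all 12182.

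Dazl had a log2 ratio of 0.17 with a counting SE of 0.05 (exact binomial test, adjusted p = 0.0125). Elavl1 had one of 0.39 with an SE of 0.13 (exact binomial test, adjusted p = 0.0351). With the spread that the negative binomial test allows, both adjusted p were 1, and that of Elavl1 in the exact binomial test was 0.0523 with no filter on low counts. Dnd1 had a log2 ratio of 0.34 with a 95% interval of -0.14 to 0.82 (exact binomial test, adjusted p = 0.466). Elavl2 had one of -0.095 with an unadjusted interval of -0.17 to -0.02, and was not called (exact binomial test, adjusted p = 0.126). Nanos1, Pum2 and Tial1 had log2 ratios of 0.048, -0.074 and -0.00165. The median absolute log2 ratio was 0.095 over the 7 regulators and 0.15 over all genes tested. The counting SE is larger at low counts, and the regulators were not set against genes of matched counts. No greater stability of the regulators is therefore read from these medians.

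The share to set beside the calls that follow is 7.84% of all genes tested, 3.59% higher and 4.25% lower in replicate 1. The lists are short, so no trait of a list is read from its calls. Among the linked lists, Cnot1 was lower in replicate 1 by 0.20 (adjusted p = 2.93e-07, exact binomial test), the single call among 10 CCR4-NOT subunits. Dazap1 was the single call among 4 DAZL partners, higher by 0.29 (adjusted p = 0.0111, exact binomial test). Of 10 P-body genes, Lsm14b was higher by 0.14 and Dcp2 had a ratio of -0.37. Of 3 early germ cell genes tested, Pou5f1 alone was called, with a ratio of -0.31. None of 6 DAZL-bound mRNAs and none of 2 paralogues was called, with 2 of 6 and 0 of 2 at an unadjusted p under 0.05 in the exact binomial test, against the same 2516 of 12182 genes. The negative binomial test called none of these genes. Of the 8 oocyte markers, 4 were lower in replicate 1 and 0 higher, against 4.25% and 3.59% of all genes tested. These were Zp3 (-0.39), Gdf9 (-0.36), Nobox (-0.12) and Kit (-0.094), and the negative binomial test called 0 of the 8. The 8 markers held 0.450% of the counts in replicate 1 and 0.483% in replicate 2. Of the 27 markers of other cell types 4 had enough counts, and the perivascular gene Myh11 was lower in replicate 1 (log2 ratio -0.54, exact binomial test, adjusted p = 0.0285). The part of these markers in the differences of Dazl and Elavl1 was not tested.

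**Figure D5:**
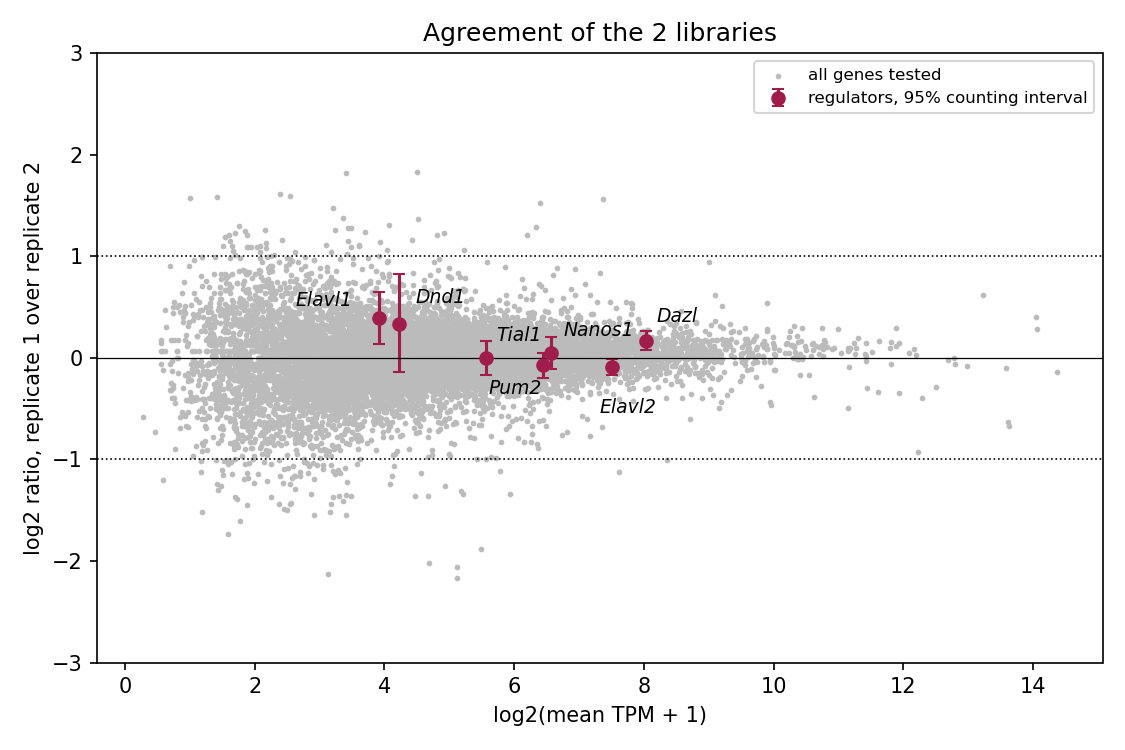
Log2 ratio of replicate 1 over replicate 2 against the mean level in log2(mean TPM + 1), for the 12182 genes tested in grey and the 7 tested regulators with 95% counting intervals, with dotted lines at a 2-fold ratio. All 7 lie between -0.095 and 0.39.

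The genes nearest in level were sought by the Euclidean distance of log2(TPM + 1) over the 2 libraries, among protein-coding genes outside the lists. For Dazl they were Atox1 (distance 0.00296) and Ndufa7 (0.00693), and for Elavl2 they were Usp8 (0.0243) and Atf6b (0.0374). For Nanos1 they were Zfp932 and Gtf3c2, for Pum2 Hmox2 and Fundc1, for Tial1 Lgmn and Pcca, for Dnd1 Rbpms and Caap1, and for Elavl1 Nfkbid and Ska2. These distances were between 0.00483 and 0.0324. With 2 libraries this likeness is one of level alone.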

How the data were processed

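Polyadenylated RNA of 2 libraries was sequenced. The authors deposited expected counts per gene, unscaled for depth or length. Per the submitters' processing notes, fastp 0.20.0, STAR 2.7.7a and RSEM were used with build GRCm38. Which annotation release they used is not given in the sources used here. Besides these 2 libraries, the table's other 21 value columns carry no name of a sample studied here and were left out. Of 53832 gene IDs, 53579 matched GENCODE M21, which gave lengths, coordinates and 3' UTRs (the longest of each gene's complete coding transcripts). TPM used merged exons. Log values are log2(TPM + 1). Counts were rounded for the test between libraries (edgeR 4.0.16 for filterByExpr and TMM, R 4.3.3, prior count 0.5). Its check on simulated data drew counts with counting noise alone. That check therefore cannot show how the test behaves under further spread between libraries. The negative binomial test was run at the preset 0.1 only. The common biological coefficient of variation that edgeR estimated from these libraries was lower, at 7.31%. With 1 group no condition can be compared. Alternatives were CPM, the longest transcript as length, totals without mitochondrial genes, a pseudocount of 0.1, a TPM threshold of 5, DESeq2 1.42.0 size factors, library totals alone, no count filter, no fold minimum, a negative binomial test and each library left out. Named genes are the 9 members, their paralogues (1 is not reported here), the 2 highest and 2 lowest of each list and the 2 nearest in level. Pabpc1, Tfap2c and the single cell type markers given with values were named after their values were seen. Members and lists were chosen with earlier results of these data known.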

Additional observations from a re-analysis of the deposited data

How the results depend on the processing

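All 42 alternative values of the 7 paralogue differences kept their sign. A pseudocount of 0.1 and totals without mitochondrial genes cannot change which of 2 genes is higher in a library, so their signs were fixed beforehand. Leaving out 1 library returns the other library's own value. The differences under CPM and under the longest transcript are the ones that could turn. With CPM in place of TPM they were 6.14 for Elavl2 minus Elavl3, 7.55 for Elavl2 minus Elavl4, 1.49 for Tial1 minus Tia1, 6.53 for Nanos1 minus Nanos2 and 6.99 for Nanos1 minus Nanos3. With the longest transcript as length they were 6.18 for Elavl2 minus Elavl3, 7.17 for Elavl2 minus Elavl4, 1.47 for Tial1 minus Tia1 and 6.21 for Nanos1 minus Nanos3. A pseudocount of 0.1 gave 7.92 for Dazl minus Boll, 6.03 for Elavl2 minus Elavl3, 7.44 for Elavl2 minus Elavl4, 2.68 for Tial1 minus Tia1, 6.98 for Nanos1 minus Nanos2 and 9.88 for Nanos1 minus Nanos3, where the last depends on the pseudocount since Nanos3 is at 0. Totals without mitochondrial genes gave 5.67 for Elavl2 minus Elavl3 and 6.72 for Nanos1 minus Nanos3. The order of neighbours turned in 3 pairs: Dazl minus Elavl2 was -0.60 with CPM and -0.10 with the longest transcript, Nanos1 minus Pum2 was -0.76 and -0.0794, and Dnd1 minus Elavl1 was -1.71 and -0.28. The median of the 9 regulators was 109 with CPM, 55.9 with the longest transcript and 51.4 without mitochondrial genes. By 1 library alone, 7 to 8 regulators were expressed, since Nanos2 reached a TPM of 1.07 in replicate 2. Between libraries, 30 genes were at least 2-fold higher and 52 lower in replicate 1; these were 104 and 107 with no filter on low counts, 5 and 8 with the negative binomial test, and 437 and 518 with no fold minimum, 2 of them regulators. With library totals alone the ratio of Tial1 was 0.00212. The cause of these shifts was not tested. No paired analysis was possible because there is 1 group. Depth limits Nanos2 and Nanos3, with counts of 0 to 3.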
